A study of Rattus norvegicus with 4 samples.

Results

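Peroxidases, superoxide dismutases and metallothioneins are the enzymes and small proteins with which a cell disposes of reactive oxygen and binds free metal ions. The 10 genes described here were taken by symbol, as Gpx1, Gpx3, Gpx4, Gpx8, Prdx1, Cat, Sod1, Sod2, Mt2A and Mt3, and each was found among the 30058 genes of the count table. They were followed through the cell types of the rat anterior pituitary, the gland that makes growth hormone, prolactin and the hormones that drive the adrenal, the thyroid and the gonads. Single cells were profiled by droplet sequencing of RNA 3′ ends, in which a unique molecular identifier (UMI) is counted once for each captured molecule. Both groups were post-pubertal Sprague Dawley rats with no treatment in their labels: females at postnatal day 44, in the diestrus phase of the oestrous cycle, and males at postnatal day 59. For each sex, 4 anterior pituitaries were pooled, dispersed with trypsin and loaded on 2 lanes. The lanes of a sex are technical replicates of 1 pool, so every p-value between sexes measures lane-to-lane error, and sex, age and pool cannot be told apart.

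The table held 7861 cells and 86742346 UMIs, with 18955509 to 24048021 UMIs per lane and a median of 8853 per cell. The lanes are named here by sex and number of cells, and values per lane are given in the order female lane with 1868 cells, female lane with 1861 cells, male lane with 2047 cells and male lane with 2085 cells. Lanes were assigned to a sex from their cell numbers, and the male gene Eif2s3y had 0 and 1 UMIs in the female lanes against 2038 and 2100 in the male lanes. Ddx3y, another Y-linked gene, had 10, 8, 11 and 14 UMIs and did not separate the sexes. Barcode sequences shared between lanes numbered 30 of 7831. After removal of outliers, doublets and ambiguous cells, 6845 cells were typed with the study's marker genes: 2316 folliculostellate cells (FSC), 1886 somatotrophs (S), 792 corticotrophs (C), 548 leukocytes (Le), 485 lactotrophs (L), 361 erythrocytes (E), 237 gonadotrophs (G), 132 endothelial cells (EC) and 88 thyrotrophs (T). C, G, T, S and L are the hormone-producing cells (HPC). Of 27 pairs of a type and a marker gene that the typing had not used, 23 had the gene highest in that type. The exceptions were Vim of FSC, which was highest in EC, Tnnt1 of C, for which C ranked 5, and Pou1f1 of both T and S, which was highest in L.

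Superoxide, which leaks from respiration, is turned into hydrogen peroxide by the dismutases, Sod1 in the cytosol and Sod2 in the mitochondrial matrix. Peroxide is then removed by catalase (Cat) in peroxisomes, by the peroxiredoxin Prdx1 with thioredoxin, and by the glutathione peroxidases: Gpx1 in the cytosol and mitochondria, Gpx3 as a secreted form, Gpx4 on lipid peroxides in membranes, and Gpx8 in the endoplasmic reticulum. Metallothioneins are small, cysteine-rich proteins that bind zinc and copper and also react with oxidants. Mt2A belongs to the widely inducible forms, and Mt3 is known above all from the brain. FSC are the non-endocrine, glia-like supporting cells of the anterior pituitary.

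The metallothionein genes lie together on rat chromosome 19. Zinc acts on the widely inducible forms through the metal response element, whose core is read here as TGCACNC or TGCGCNC on either strand. The sequences below are shown because the metallothioneins had the highest levels of all members in FSC and because their promoters hold several copies of this core. They were read from the RefSeq promoter table (GRCr8, 250 bases before to 50 bases after the start of transcription). All windows lie on the minus strand of chromosome 19, are written 5′ to 3′ in the direction of the gene, and have the core in capitals. Positions are those of the first base of the core relative to the start.
Mt2A at -220, chr19:10838911-10838939: agcgcgggggcGTGTGCAggctctgtacc
Mt2A at -165, chr19:10838856-10838884: gacttcgggtcGTGCGCAggctcccgggc
Mt2A at -111, chr19:10838802-10838830: agaagaagggcGTGTGCAggcagtgggga
Mt2A at -55, chr19:10838746-10838774: ggcggagctttTGCGCGCgacccaatact
Mt3 at -110, chr19:10856173-10856201: agctgccgcagTGCACACgcacagagagc
Mt3 at -81, chr19:10856144-10856172: aggcgctgtgcGTGCGCAggggcgggagc
Mt3 at -51, chr19:10856114-10856142: aagtcgctgctTGCGCGCccccgcctggg

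The Mt2A promoter held 4 matches to the core and the Mt3 promoter held 3. The neighbouring gene Mt1, which the count table lists as Mt1a, held 6. Of 33469 promoters of the same length, 24.2% held at least 1 match, 1.68% at least 3 and 0.439% at least 4. None of the other 7 members with a promoter sequence held a match, and none was at hand for Gpx8. The core of the antioxidant response element, TGACNNNGC on either strand, occurred once each in the promoters of Sod2, Prdx1, Mt2A and Mt1, against 12.1% of all promoters with at least 1. A match is a string of letters and was not tested for binding.

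Levels are given as counts per 1000000 UMIs of the summed cells of a type (CPM). A share of cells is the share above a threshold set for each gene by Otsu's method, which splits the distribution of log values into 2 classes. Differences between types are log2 differences with their standard error (SE), from edgeR's quasi-likelihood test on 16 sums of 8 types and 2 sexes. The model held type and sex, so its error is how far differences between types varied between the 2 pools. A sex difference within a type therefore enters the error of these tests. The test used TMM factors, which scale the sums so that most genes are level, and Benjamini-Hochberg adjusted p over all genes, with a limit of 0.001. E were left out of this fit because globin filled 96.8% of their UMIs.

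The first question was how the supporting cells differ from the endocrine cells. FSC had far higher levels of both metallothioneins and of Gpx8, higher levels of Gpx1 and Cat, and lower levels of Gpx3 and Sod2 than HPC. Of the 10 members, 5 were higher and 2 lower, against 26.4% of 13614 genes in either direction. The median difference was 1.34 over the members and 0.09 over all genes. The remaining 3 members did not pass the limit: Gpx4 at -0.87 (adjusted p = 0.00102), Prdx1 at 0.67 (adjusted p = 0.00183) and Sod1 at -0.53 (adjusted p = 0.015). Scaling to library size in place of TMM shifted the median of all genes from 0.09 to 0.39 and the share of higher calls from 65.1% to 78.7%, and the 7 members kept their calls.

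**Figure D1:**
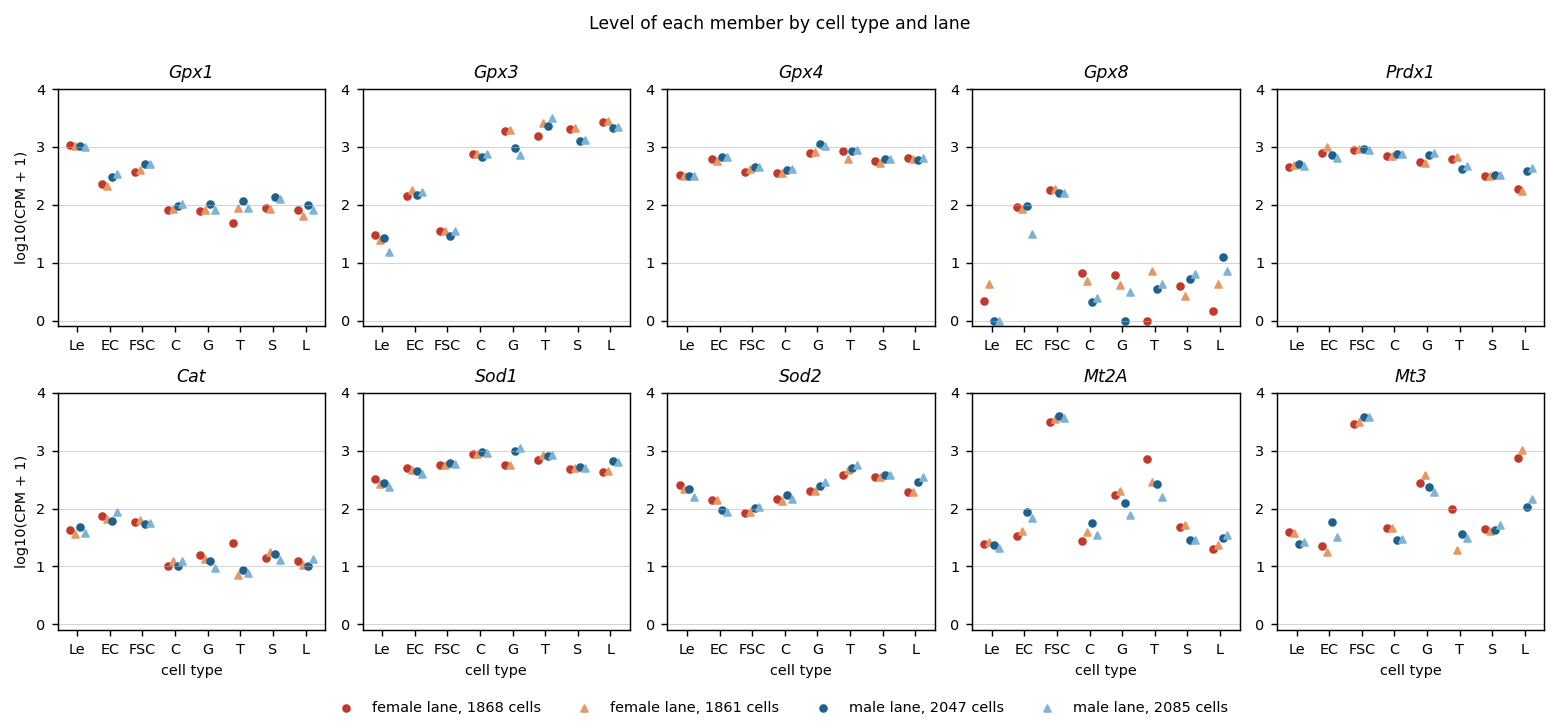
Level of each of the 10 members, as log10(CPM + 1), in 8 cell types, with 1 point for each of the 4 lanes (red and orange, female; dark and light blue, male). Mt2A and Mt3 stand highest in FSC, Gpx3 stands highest in T and L and lowest in Le and FSC, and Gpx4, Prdx1 and Sod1 differ least between types.

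Gpx3, the secreted peroxidase, was high in the 5 endocrine types and low in the other 3 types of the fit. Its CPM was 2649, 2838, 2135 and 2213 in L, and 1571, 2622, 2311 and 3201 in T. S had 2072, 2129, 1293 and 1299 CPM, and G had 1901, 1964, 947 and 740. C followed with 747, 764, 662 and 768 CPM, and every lane of the 5 endocrine types lay above every lane of EC, FSC and Le. EC held 140, 178, 149 and 165 CPM, FSC 34.9, 34.7, 27.7 and 34.0, and Le 29.3, 23.6, 25.3 and 14.1. The difference of FSC from HPC was -5.90 ± 0.39 (SE; adjusted p = 5.51e-09), a 59.6-fold lower level. Along the order of levels, C differed from EC by 2.57 (adjusted p = 4.26e-05) and EC from FSC by 2.11 (adjusted p = 0.000422), while the steps among L, T, S, G and C did not pass the limit. The share of cells above threshold was 99.0% in L, 98.4% in S, 94.3% in T, 89.9% in G and 74.6% in C, against 0.648% in FSC and 0.365% in Le.

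Droplets also carry RNA set free from broken cells, and the hormone transcripts show its extent. Gh1, the growth hormone gene of S, was read at 2800 CPM in Le and at 3312 CPM in FSC. Gpx3 stood at 8.20 UMIs per 1000 Gh1 UMIs in Le (95% exact Poisson interval 6.55 to 10.1, counting error only), at 9.85 in FSC (9.09 to 10.7) and at 5.64 in E (3.58 to 8.47), against 261 in C and 754 in L. The low Gpx3 levels in Le and FSC are given as values only, and the part of free RNA in them was not tested.

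Gpx1, the general intracellular peroxidase, had the opposite order. Its CPM was 1078, 1059, 1050 and 990 in Le, 375, 401, 504 and 505 in FSC, and 232, 208, 305 and 335 in EC. All HPC types lay between 48.1 and 138 CPM in every lane. Per 1000 Gh1 UMIs, Gpx1 stood at 32.8 in C, 28.8 in G, 21.1 in T and 23.1 in L. The part of free RNA in these levels was not tested. Le exceeded FSC by 1.84 (adjusted p = 7.04e-06), and FSC exceeded HPC by 2.00 ± 0.15 (adjusted p = 3.16e-08). The gene was above threshold in 92.2% of Le and 58.3% of FSC. Over the 16 sums, Gpx1 and Gpx3 ran in opposite directions, with a Pearson r of -0.95 of log2(CPM + 1), which is a description over sums that share lanes.

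Gpx8, the peroxidase of the endoplasmic reticulum, was read at 178, 190, 158 and 159 CPM in FSC and at 91.5, 82.6, 95.7 and 30.9 CPM in EC. In Le and the 5 endocrine types no lane exceeded 11.8 CPM, from 101 UMIs in S down to 3 UMIs in T. FSC exceeded HPC by 5.33 ± 0.31 (adjusted p = 1.13e-09), and EC exceeded L, next in order, by 3.42 (adjusted p = 0.000176). FSC and EC themselves, although apart in every lane, did not pass the limit as neighbours. The share of cells above threshold was 65.9% in FSC and 34.8% in EC, and at most 2.68% in an endocrine type.

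Gpx4, which protects membrane lipids, was present everywhere. G held 774, 814, 1144 and 1040 CPM, and Le held 329, 319, 312 and 308 CPM. No type passed the limit against the others, and no step between neighbouring types passed it. The step with the lowest adjusted p was S over FSC, at 1.01 ± 0.22 (adjusted p = 0.00147). Prdx1 held 890, 922, 923 and 899 CPM in FSC. In the mean of the sexes it was lowest in L, at 184, 174, 384 and 427 CPM by lane. S held 314 CPM in females and 327 in males, the latter below male L. Neither Gpx4 nor Prdx1 was called in FSC against HPC, in a type against the others or between neighbouring types. With the lanes of a pool taken as libraries and lane as block, FSC against HPC passed for Gpx4 (-0.85, adjusted p = 8.59e-08) and Prdx1 (0.70, adjusted p = 8.17e-08), as it did by DESeq2. In that lane setting Gpx4 was called in 6 types against the others and Prdx1 in 4. The lanes of a sex are technical replicates of 1 pool, so this setting adds libraries without adding animals.

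Catalase was low throughout and split the types into 2 levels. EC held 72.7, 66.1, 60.3 and 87.5 CPM, FSC 58.1, 61.4, 52.1 and 55.4, and Le 41.5, 35.4, 46.7 and 36.8. HPC lanes lay between 6.17 and 24.1 CPM, and none overlapped with those 3 types. FSC exceeded HPC by 2.03 ± 0.16 (adjusted p = 3.65e-08), and Le exceeded S, the next type down, by 1.54 (adjusted p = 2.58e-05). T rested on 9 UMIs of Cat and G on 35.

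In the mean of the sexes, the cytosolic dismutase Sod1 was highest in C, at 889, 863, 933 and 922 CPM by lane. It was lowest in Le, at 323, 265, 275 and 231 CPM. In males G stood above C, at 1055 against 927 CPM. No type passed the limit against the others. With lanes as libraries and lane as block, Sod1 passed in Le (-0.82, adjusted p = 1.19e-07), EC (-0.80, adjusted p = 5.41e-07) and C (0.69, adjusted p = 2.34e-07). That setting adds libraries without adding animals. These 3 types also passed by DESeq2 and without a filter on low counts. The mitochondrial dismutase Sod2 varied more, with 385, 463, 510 and 569 CPM in T and 350, 345, 374 and 384 CPM in S. FSC held 83.3, 85.6, 102 and 106 CPM, below every HPC lane, and differed from HPC by -1.83 ± 0.20 (adjusted p = 1.29e-06).

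Mt2A was read at 3141, 3545, 3904 and 3719 CPM in FSC. T came next with 722, 284, 263 and 159 CPM, then G with 173, 203, 123 and 77.2 CPM. All other types stayed at or below 85.1 CPM in every lane. FSC exceeded HPC by 5.38 ± 0.22 (adjusted p = 1.90e-11), a 41.6-fold higher level, and T by 3.42 (adjusted p = 8.26e-06). Against the free RNA, Mt2A stood at 7.23 UMIs per 1000 Gh1 UMIs in L (6.13 to 8.46), at 8.11 in Le (6.47 to 10.0) and at 6.38 in E (4.17 to 9.35). It stood higher in T, at 66.0 (58.6 to 74.1), and in G, at 55.8 (50.7 to 61.2). The 4 marker genes of FSC summed to 8.02 to 24.7 CPM in T and to 6.96 to 33.6 CPM in G, against 2894 to 3172 CPM in FSC. Their part in the Mt2A level of T and G was not tested.

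Mt3 was about as abundant in FSC, at 2882, 3183, 3793 and 3804 CPM, and 94.7% of FSC were above threshold. Unlike Mt2A it was also high in L, at 746, 1029, 104 and 143 CPM, where the female lanes stood above the male ones. G held 271, 372, 232 and 189 CPM, and the remaining types of the fit lay between 16.5 and 96.2 CPM. FSC exceeded HPC by 4.90 ± 0.39 (adjusted p = 3.99e-08). The step from FSC to L, 2.29 ± 0.63, did not pass the limit (adjusted p = 0.00857), although every FSC lane lay above every L lane. In Le 0 of 548 cells were above threshold (upper exact binomial bound 0.671%). With each cell thinned to 2000 UMIs, Mt3 had at least 1 UMI in 94.8% of FSC, 36.9% of L and 34.2% of G, against 8.03% of Le, 7.45% of C and 8.54% of S, where the median cell before thinning had 6488.5 UMIs in Le and 6898 in FSC.

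The next question was where each member was high or low when a type was set against the mean of the other 7. In FSC 5 members were higher and 2 lower, where 20.2% of all genes were called. Mt2A rose by 5.68, Mt3 by 5.39, Gpx8 by 4.94, Cat by 1.41 and Gpx1 by 1.29, while Gpx3 fell by 4.53 and Sod2 by 1.58. Le had 2 higher and 2 lower against 27.4% of all genes, with Gpx1 at 3.40, Cat at 1.53, Gpx3 at -4.43 and Mt2A at -1.99. EC also had 2 higher and 2 lower against 17.7%, with Gpx8 at 3.51, Cat at 1.61, Gpx3 at -2.11 and Sod2 at -1.39. Sod2 in EC was -0.95 (adjusted p = 0.00262) with library-size scaling.

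Among the endocrine types, L had Gpx3 higher by 3.21 and Mt3 by 2.77 and Mt2A at -1.86, against 7.74% of all genes. Mt3 in L was at 886 CPM in females and 123 in males, where male G held 209. T had Gpx3 higher by 2.72, Mt2A by 1.78 and Sod2 by 1.20 and Gpx1 at -1.28, against 3.68%. Without the female lane with 1868 cells, Mt2A in T was 1.31 (adjusted p = 0.00173), and Gpx1 in T lost its call without any 1 of 3 lanes. S had Gpx3 higher by 2.59 and Sod2 by 1.29, against 11.5% of all genes. G had Gpx3 higher by 1.73 and Gpx1 at -1.31, against 7.57%. C had no member higher, and Gpx1 at -1.11 and Cat at -1.19 were lower, against 11.5% of all genes. Cat in C was -1.06 (adjusted p = 0.00205) without the female lane with 1868 cells and -0.65 (adjusted p = 0.336) in thinned cells. Mt2A in C did not pass in the main test, but passed by DESeq2 (-1.62, adjusted p = 2.50e-05) and in thinned cells (-1.25, adjusted p = 0.000649). Gpx1 in L did not pass either, but passed by DESeq2 (-0.90, adjusted p = 4.08e-05) and with library-size scaling (-1.23, adjusted p = 6.28e-05). Neither of these passed in every other setting. Library-size scaling moved the share of higher calls among all genes from 65.3% to 48.1% in Le, from 68.8% to 86.2% in EC, from 77.5% to 55.5% in S and from 82.3% to 65.7% in L. Along the order of levels of all 10 members, 6 of 70 steps between neighbouring types passed the limit, where 14.1% of the gene tests over all 28 pairs of types did. Neighbours are the smallest steps by construction, so nothing is read from these shares.

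**Figure D2:**
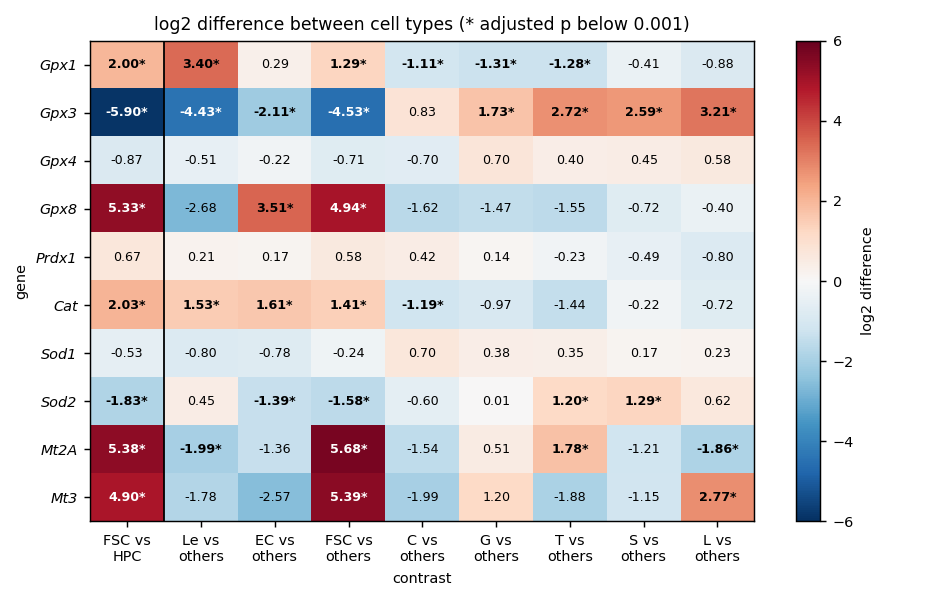
Log2 difference of each member (rows) in FSC against HPC and in each of 8 types against the mean of the other 7 (columns), from red for higher to blue for lower, with an asterisk where adjusted p is below 0.001. Gpx3 is called in 7 of the 8 types and Gpx4, Prdx1 and Sod1 in none.

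E and 3 small groups were kept out of the tests and have values only. The 3 small groups were taken without the removal of outliers and doublets. In E, whose UMIs are mostly globin, Gpx1 stood at 4184 CPM once globin was left out of the total, Gpx4 at 1660 and Cat at 1454. Per 1000 Gh1 UMIs this was 105 for Gpx1 (94.8 to 115) and 36.3 for Cat (30.7 to 42.7), against 21.1 and 2.06 in T. Gpx4 in E stood at 41.5 per 1000 Gh1 UMIs (35.5 to 48.2), below the 113 of Le and every other type. In E, Gpx3 stood at 5.64 (3.58 to 8.47) and Sod1 at 3.19 (1.70 to 5.46). The part of free RNA in the Gpx4 level of E was not tested. Sod1 and Sod2 in E rested on 13 and 7 UMIs. The 51 pericytes had 417 CPM of Gpx8 and 2134 CPM of Gpx3. The 60 melanotrophs, cells of the intermediate lobe of which 4 were female, had 568 CPM of Mt3 and 310 CPM of Gpx3. Their Gpx3 was at 1043 CPM in the 4 female cells and 237 in the male cells. The 59 posterior pituitary cells, of which 4 were female, had 2601 CPM of Mt3, 913 CPM of Mt2A and 203 CPM of Gpx8.

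FSC are not uniform, and the classes with Gpha2 or with Krt7, both set by genes outside the members, were compared with lane as a block. As the lanes of a sex share 1 pool, p-values of these classes and of the Le classes below measure lane-to-lane error. The 830 cells with Gpha2 alone and the 103 with Krt7 alone differed in 4 of 10 members, against 5.92% of all genes. Gpx1 was lower in Gpha2 cells, at 250, 267, 300 and 359 CPM against 535, 639, 663 and 670 (-1.03, adjusted p = 3.00e-08). Gpx8 was higher, at 229, 228, 205 and 197 CPM against 69.9, 107, 64.1 and 96.8 (1.43, adjusted p = 1.41e-07). These classes did not overlap in any lane for either gene.

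Prdx1 was higher in Gpha2 cells, at 966, 1025, 1007 and 1012 CPM against 781, 730, 683 and 670 (0.56, adjusted p = 0.000139), but lost its call when any 1 lane was left out (adjusted p 0.00138 to 0.00275). Mt3 was higher by 0.59 (adjusted p = 9.66e-05), at 3123, 3414, 4011 and 4049 CPM against 1575, 2549, 2712 and 3725, and the lanes overlapped. Its difference was 0.42 (adjusted p = 0.0138) without the female lane with 1868 cells and 0.55 (adjusted p = 0.00364) without the male lane with 2047 cells. Mt2A differed by 0.09 ± 0.12 (adjusted p = 0.691). The 1360 FSC with neither marker lay between both classes for Gpx1, Gpx8 and Prdx1 in every lane.

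**Figure D3:**
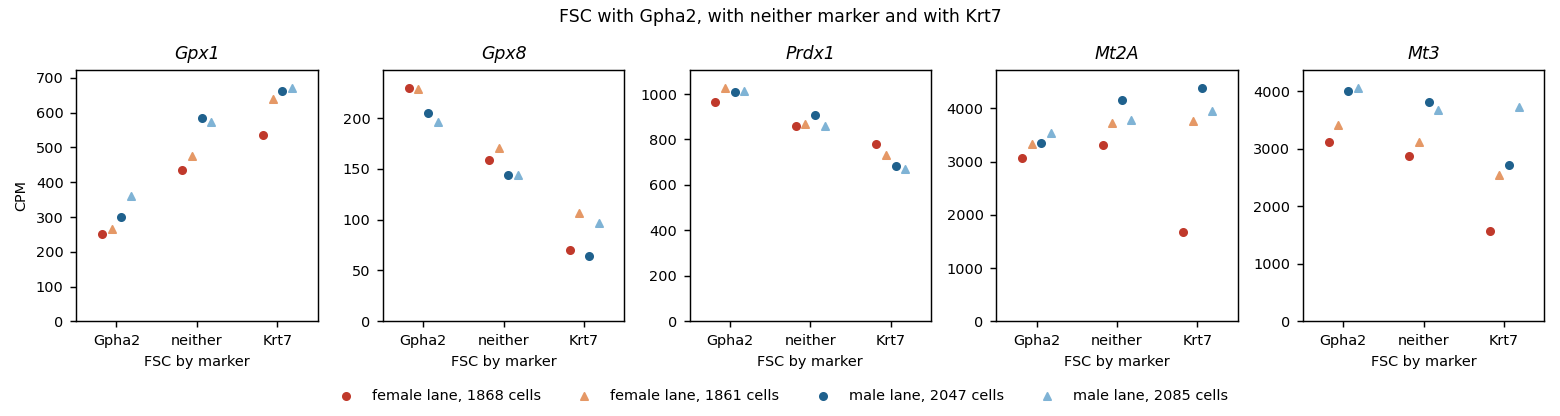
CPM of 5 members in FSC with Gpha2 alone, with neither marker and with Krt7 alone, with 1 point for each of the 4 lanes. Gpx1 runs from 250 to 359 CPM in Gpha2 cells and from 535 to 670 in Krt7 cells, and Gpx8 runs the other way, from 197 to 229 and from 64.1 to 107.

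Le divide into 493 cells with the C1q genes of resident macrophages and 54 without. None of 9 members tested passed the limit in edgeR, against 7.35% of all genes. Members with an unadjusted p under 0.05 numbered 2, Gpx4 at 0.65 (adjusted p = 0.0281) and Mt2A at 2.32 (adjusted p = 0.059), and DESeq2 also called none. Of 5442 genes tested, 1771 had an unadjusted p under 0.05 in edgeR.

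Males and females were then compared within each type, over the 2 lanes of each sex. In FSC, the type with most cells, 2 of 10 members passed the limit, against 2.92% of all genes. Gpx1 was higher in males by 0.34 ± 0.05 (adjusted p = 0.000267), and Mt3 was higher by 0.29 ± 0.04 (adjusted p = 0.000156). The male lanes lay above the female lanes for both. Both calls depended on the lanes taken and on other settings. Without the female lane with 1868 cells Gpx1 was 0.28 (adjusted p = 0.0105) and Mt3 0.21 (adjusted p = 0.00403). Gpx1 also lost its call without the female lane with 1861 cells (adjusted p = 0.00105) and without the male lane with 2085 cells (adjusted p = 0.00144). Without a filter on low counts neither gene passed (adjusted p = 0.0269 for Gpx1 and 0.0474 for Mt3). Gpx1 did not pass in thinned cells (adjusted p = 0.00158), nor Mt3 with doublets and outliers kept (adjusted p = 0.002).

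In S, 3 of 10 members passed, against 11.1% of all genes. Gpx3 was lower in males by 0.75 ± 0.03 on the log2 scale (adjusted p = 8.27e-23), from the lane values given above, which did not overlap. Mt2A was at 46.1, 50.4, 27.3 and 28.1 CPM, a difference of -0.86 ± 0.10 (adjusted p = 5.38e-09). Le, whose Mt2A is set beside the free RNA above, had 19.5 to 25.8 CPM. Gpx1 was higher in males, at 86.5, 83.5, 138 and 124 CPM (0.57 ± 0.07, adjusted p = 1.22e-08). In thinned cells the difference of Gpx1 was 0.51 (adjusted p = 0.00939). Gpx1 was not called between sexes in the other endocrine types. Females and males held 82.2 and 99.1 CPM in C and 77.9 and 91.4 in G. The values were 69.7 and 103 CPM in T and 72.7 and 89.6 in L. The part of free RNA in these levels was not tested.

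In G, 2 of 8 members tested passed, against 4.36% of all genes. Gpx3 was lower in males (-1.46 ± 0.12, adjusted p = 9.28e-07), with 1901 and 1964 CPM in the female lanes and 947 and 740 CPM in the male ones. Sod1 was higher in males (0.64 ± 0.10, adjusted p = 0.000362), with 574 and 557 against 1002 and 1104 CPM, and without the male lane with 2085 cells its adjusted p was 0.00565. Mt2A at -1.18 (adjusted p = 0.00109) and Mt3 at -0.88 (adjusted p = 0.00422) did not pass in the main test. Without a filter on low counts both passed (adjusted p = 8.96e-09 and 8.39e-08). Mt2A also passed in cells typed by markers alone (adjusted p = 0.000766). Library-size scaling shifted the median of all genes in G from 0.01 to 0.27, with Gpx3 at -1.19 and Sod1 at 0.91. On that scale Gpx4 at 0.47 (adjusted p = 0.00065) and Prdx1 at 0.50 (adjusted p = 0.00079) were called as well. The 3 marker genes of G summed to 71695 and 80676 CPM in the female lanes and to 44087 and 42311 CPM in the male lanes, and their part in these differences was not tested.

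L held the largest sex difference of any member. Mt3 was lower in males by 3.50 ± 0.11 on the log2 scale (adjusted p = 1.29e-35), with 746 and 1029 CPM in the female lanes and 104 and 143 CPM in the male ones. In all, 4 of 9 members tested passed in L, against 18.1% of all genes. Gpx3 was at -0.99 ± 0.05 (adjusted p = 1.96e-23), Gpx4 at -0.69 ± 0.07 (adjusted p = 5.19e-12) and Prdx1 at 0.52 ± 0.09 (adjusted p = 6.49e-06). The CPM of Gpx4 overlapped between sexes, at 636, 625, 596 and 635. Prdx1 did not overlap, at 184, 174, 384 and 427 CPM, and had an adjusted p of 0.00101 without the female lane with 1861 cells, 0.00207 by DESeq2 and 0.0537 in thinned cells. In thinned cells Gpx4 was -0.42 (adjusted p = 0.0114).

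Values in L depended on the scaling. Prl, the prolactin gene, took 31.5% of the UMIs of female L and 18.0% of those of male L, and the median L had 18301 UMIs in females and 7214.5 in males. Library-size scaling put the median of all genes at 0.68 in place of 0.02 and the share of higher calls at 88.3% in place of 33.7%. Relative to that scale Mt3 was -2.84 and Gpx3 -0.33, both still called. Gpx4 was -0.03 (adjusted p = 0.745), and Sod1 turned from -0.07 to 0.59 (adjusted p = 1.29e-09). Prdx1 was at 1.18 and Sod2 at 0.71 on that scale.

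The cells themselves showed the Mt3 difference in L. The median female L had 416 CPM and the median male L had 0, and 42.7% of female L against 1.16% of male L were above threshold. The female cells were spread widely, from 0 CPM at their 10th percentile to 2383 CPM at their 90th. At 2000 UMIs per cell, Mt3 was read in 59.5% of female and 17.1% of male L, where Le had 8.43% and 7.67%. The FSC marker genes summed to 12.7 and 14.3 CPM in female L and to 63.6 and 10.4 CPM in male L, and their part in the Mt3 level was not tested.

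**Figure D4:**
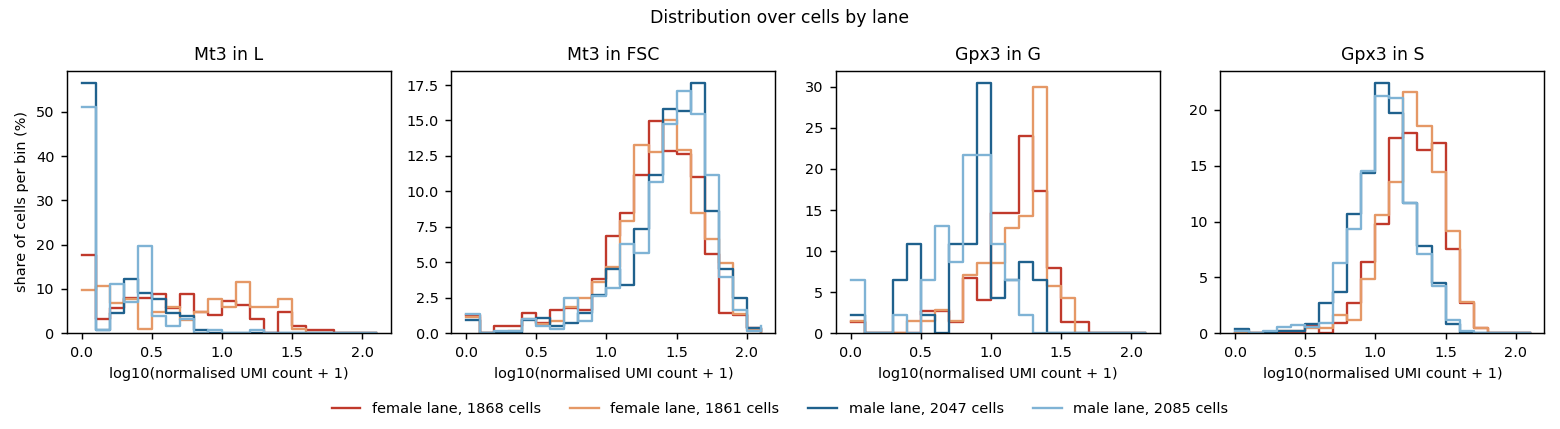
Distribution over cells of log10(normalised UMI count + 1), as a share of cells per bin, for Mt3 in L and in FSC and for Gpx3 in G and in S, with 1 line for each of the 4 lanes. Most male L fall in the lowest Mt3 bin whereas female L spread over more bins, and Gpx3 in G and S is shifted to lower values in both male lanes.

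No member passed the limit between sexes in the other 4 types. In edgeR this was 0 of 9 members in Le (0.344% of all genes), 0 of 9 in EC (0.793%), 0 of 9 in C (0.665%) and 0 of 7 in T (1.53%). At an unadjusted p under 0.05 there were 1 in Le, 4 in EC, 3 in C and 4 in T. Over all genes these were 575 of 6678 in Le, 504 of 4539 in EC, 1066 of 9927 in C and 515 of 3195 in T. DESeq2 called 0 members in each. In T, which had 88 cells, Mt2A was -1.07 (adjusted p = 0.00552) with lane values that did not overlap, and -1.58 (adjusted p = 7.55e-07) without the female lane with 1861 cells. Gpx3 in T was 0.49 (adjusted p = 0.143), and 0.97 (adjusted p = 3.11e-07) without that lane. The markers Tshb and Trhr summed to 10911 and 24583 CPM in female T and to 81932 and 76264 CPM in male T, and their part in these values was not tested.

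**Figure D5:**
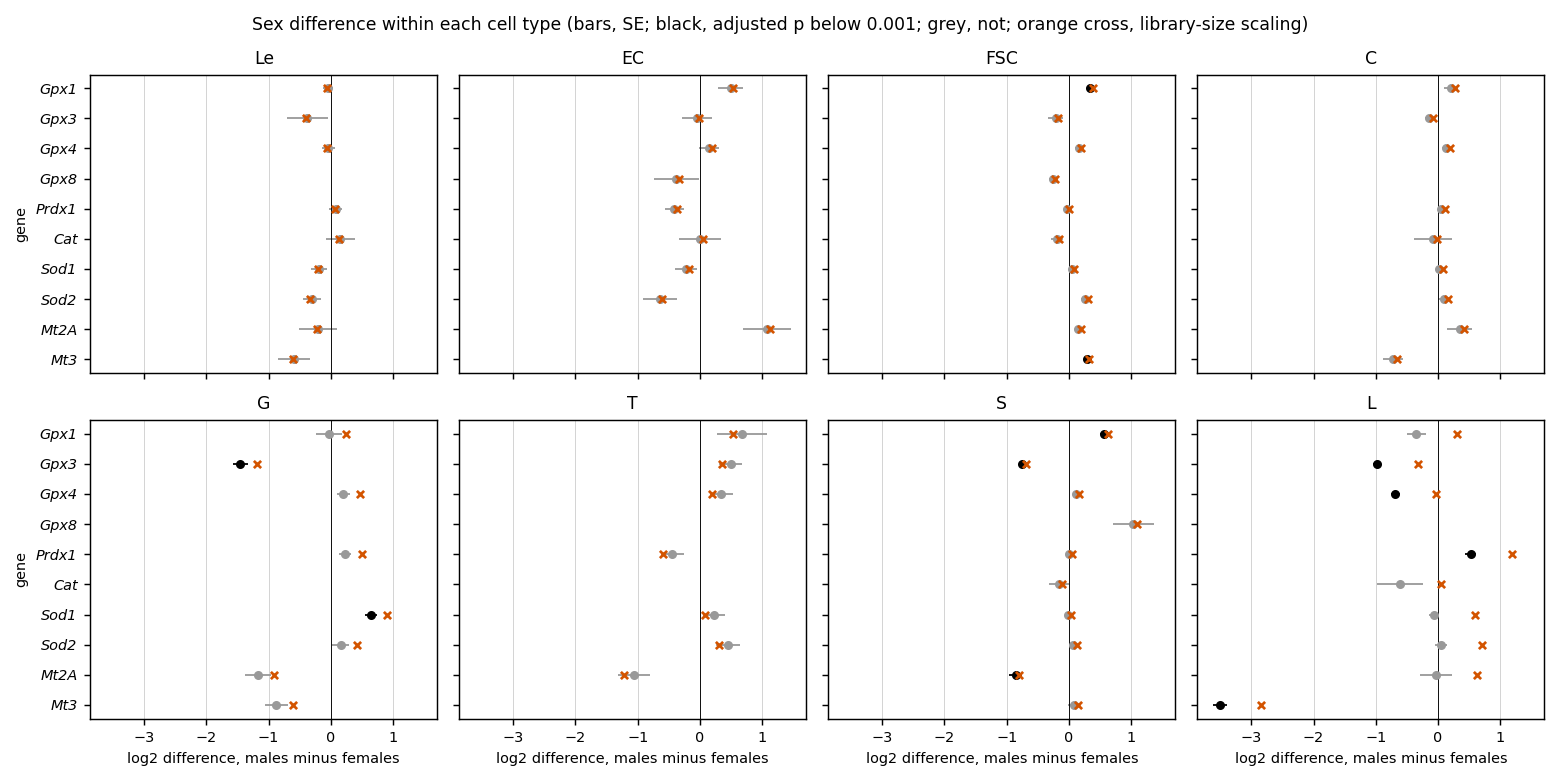
Log2 difference, males minus females, of each member in 8 cell types, with bars for the SE, black where adjusted p is below 0.001 and grey where not, and an orange cross for library-size scaling. Mt3 in L lies at -3.50 and Gpx3 lies below 0 in G, S and L, whereas in L the crosses stand to the right of the points for all 9 members tested.

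Whether a sex difference was particular to a type was tested as the difference between that type's value and the mean of the other 7, over lanes. In L, 4 members passed, against 5.85% of all genes: Mt3 at -3.36 (adjusted p = 1.43e-18), Gpx4 at -0.86, Gpx3 at -0.64 and Prdx1 at 0.58. With library-size scaling, Gpx3 in L was -0.02 (adjusted p = 1) and Gpx4 -0.23 (adjusted p = 0.0361). In G, Gpx3 at -1.19 and Sod1 at 0.64 passed, against 1.14%. In T, Gpx3 passed at 1.18, against 0.552%, and in FSC Mt3 passed at 0.98, against 0.592%. For Mt3 the mean of the other types includes L at -3.50, and the sex difference within FSC was 0.29. For Gpx3 the other types include G at -1.46, L at -0.99 and S at -0.75. The sex difference of Gpx3 within T was 0.49 and did not pass (adjusted p = 0.143). With library-size scaling Gpx3 in T was 0.77 (adjusted p = 0.00131) and Mt3 in FSC 0.90 (adjusted p = 0.00123). No member passed in edgeR in Le (0.158%), EC (0.0868%), C (0.0789%) or S (0.781%), where 4, 5, 2 and 5 of the 10 members had an unadjusted p under 0.05. Of 12673 genes tested, 997, 777, 922 and 1753 had such a p in these types.

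The lanes of 1 sex show the error behind these values. Between the female lanes, over 8 types, Mt3 was higher by 0.27 in the lane with 1861 cells (adjusted p = 6.02e-05), against 0.338% of all genes, and DESeq2 put it at 0.12 (adjusted p = 0.892). Within FSC the female lanes held 2882 and 3183 CPM of Mt3 and the male lanes 3793 and 3804 CPM. Between the male lanes 0 of 10 members passed in edgeR or DESeq2, where edgeR called 0.143% of all genes. In edgeR 2 members had an unadjusted p under 0.05, as did 541 of 11877 genes.

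Of 55 other genes of antioxidant defence and metal binding, 51 were tested in FSC against HPC. FSC had 15 of them higher and 4 lower, where 26.4% of all genes were called, and their median of -0.08 lay near the 0.09 of all genes. Sod3, the extracellular dismutase, was at 73.5 CPM in FSC and at most 2.5 CPM in any other type (6.11, adjusted p = 1.02e-10). Mt1a, a metallothionein of the MT1 class, was at 1595 CPM in FSC, 1059 in G and 717 in T (1.87). Nqo1, a quinone reductase and classic target of the factor Nrf2, was higher in FSC by 3.15. Hmox1, which breaks down haem, was higher in FSC than in HPC by 2.74, but stood at 258 CPM in Le and 105 in EC against 27.7 in FSC. Among HPC, C held 21.1 CPM of Hmox1 and the other types at most 5.15. Sepp1, the selenium carrier, was higher by 3.84, with 2565 CPM in EC, 1777 in Le and 258 in FSC.

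Lower in FSC were Selm, a selenoprotein of the endoplasmic reticulum (-4.00), and Srxn1, which repairs oxidised peroxiredoxins (-3.45). Srxn1 was at 71.3 CPM in S and 1.53 CPM in FSC. Also higher in FSC than in HPC were Msrb3 (2.15), Gpx7 (2.07), Gpx2 (2.02) and Gclc (1.88), the last encoding the catalytic subunit of the first enzyme of glutathione synthesis. EC held 22.6 CPM of Msrb3 and 29.6 of Gpx7, against 11.5 and 23.4 in FSC. Le held 34.3 CPM of Gclc against 25.7 in FSC, whereas Gpx2 was highest in FSC, at 13.1 CPM. Mt1m was at 364 CPM in FSC (5.80). It is annotated as a pseudogene in RefSeq, and its counts followed those of Mt2A over the 16 sums (r = 0.98). Whether this pair shared reads was not tested. Prdx1 has a like copy, Prdx1l1, at 13.0 CPM in FSC.

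Against the mean of the other 7 types, the list of 51 had 12 genes higher and 2 lower in FSC (20.2% of all genes called), 8 and 5 in Le (27.4%) and 6 and 9 in EC (17.7%). It had 4 and 2 in S (11.5%), 4 and 1 in G (7.57%), 3 and 1 in L (7.74%), 2 and 3 in C (11.5%), and 2 and 1 in T (3.68%). Between sexes, L had 3 of 39 higher in males and 9 lower (18.1% of all genes called), S had 5 of 47 higher and 4 lower (11.1%), FSC 2 of 49 higher and 1 lower (2.92%), and G 1 of 35 in each direction (4.36%). With library-size scaling 5 of the 12 calls in L were lost, and Txn1, named here after its values were seen, turned from -0.31 to 0.35. In edgeR no gene of the list was called in Le, EC, C or T, where 6 of 40, 4 of 30, 4 of 45 and 8 of 25 tested had an unadjusted p under 0.05. Over all genes these were 575 of 6678, 504 of 4539, 1066 of 9927 and 515 of 3195. Srxn1 was higher in male S by 1.97 (adjusted p = 8.84e-20). Selm was lower in male L by 1.98 on the log2 scale, and by 1.32 with library-size scaling. Mt1a in L was -0.85, and with library-size scaling -0.19 (adjusted p = 0.168).

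The genes most like each member were those with the highest Pearson r of log2(CPM + 1) over the 16 sums, among genes with a mean of at least 50 CPM. Gpx1 was nearest to Mcl1 (r = 0.98), Nfkbia and Glul, and Gpx3 to Sec61g (0.96), Cmas and Hint1. Gpx4 was nearest to Slc25a39 (0.91), Uqcc2 and Mcfd2, and Gpx8 to Cyr61 (0.96), Ndrg2 and Fstl1. Prdx1 was nearest to Elavl1 (0.95), Paip1 and Zmat2, and Cat to Ifitm2 (0.96), Hnrnpf and Pltp. Sod1 was nearest to Pcmtd2 (0.96), Pja2 and Akap11, and Sod2 to Serpini1 (0.82), Atp5g1 and Atp6v1g1. Mt2A was nearest to Mt1m (0.98), S100a1 and Msx1, and Mt3 to Cd24 (0.90) and Oat. These values describe 16 sums that share lanes and depth and have no test.

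Within FSC, the levels of Mt2A and Mt3 were weakly related over 2316 cells, with r = 0.33 (0.28 to 0.35 within lanes) and 0.17 in thinned cells. Mt2A and Mt1m had r = 0.76 (0.73 to 0.79 within lanes) and 0.55 in thinned cells. Cells of a lane share a library, so these are descriptions.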

How the data were processed

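The authors deposited 1 table of UMI counts per gene and cell, made with Cell Ranger 2.1 from Chromium 3′ v2 libraries. Reads were aligned to the NCBI rat reference (Rnor6) with gene ends extended by up to 4 kb, and lanes were aggregated in mapped normalization mode, which removes reads so that lanes have equal mapped depth. No column of per-sample values was left unused.

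From these counts, cells more than 2 SD above the mean mitochondrial share of their type and sex (276) were removed. Depth outliers (328), doublets (187), ambiguous (207) and unclassified cells (22) were also removed, and 221 cells were typed by their 30 nearest neighbours. UMIs were summed per type and sex, or per type and lane. Genes were filtered with filterByExpr (minimum count 10) and tested with edgeR 4.0.16 in R 4.3.3, and with DESeq2 1.42.0 as an alternative. The procedure was first run on simulated counts in which all sums shared a profile, apart from genes changed by known folds. Such counts lack the shift in Prl share of the real L, and nothing is read from them. All 10 members were entered in each comparison. Those past the limit in the main test were named with their values, and the others were in part only counted. Of the other antioxidant genes, at most 12 called in FSC against HPC or between sexes were named, by size of the fold change, with 3 genes of like pattern for each member, of which 1 is not reported here. Members, lists and tests were chosen with earlier results of these data known. Alternatives were library-size scaling, no filter, lanes as libraries with lane as block, E in the fit, marker-set cells only, doublets and outliers kept, 7 hormone genes left out, cells thinned to 2000 UMIs, an adjusted p limit of 0.05, and each lane left out. Promoter sequences come from RefSeq on GRCr8, another build than that of the counts, and were matched by symbol for 9 of the 10 members. Intervals cover counting error only.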

Additional observations from a re-analysis of the deposited data

Results flagged for a closer look

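In 8 cases the sex difference of a member in 1 cell type differed from its mean sex difference in the other 7 types, by an edgeR test of that difference over lanes (adjusted p below 0.001). Values are log2, males minus females in the type less the same in the others. In L these were Mt3 at -3.36 ± 0.22, Gpx4 at -0.86 ± 0.09, Gpx3 at -0.64 ± 0.14 and Prdx1 at 0.58 ± 0.11 (SE). In G they were Gpx3 at -1.19 ± 0.16 and Sod1 at 0.64 ± 0.10. The value of Gpx3 in T was 1.18 ± 0.16, with 88 cells in all. Gpx3 within T differed by 0.49, which did not pass, and the other types include G at -1.46, L at -0.99 and S at -0.75. The value of Mt3 in FSC was 0.98 ± 0.19, where Mt3 within FSC differed by 0.29 and the mean of the other types includes L at -3.50. With library-size scaling 4 of the 8 cases did not pass: Mt3 in FSC (adjusted p = 0.00123), Gpx3 in T (adjusted p = 0.00131), and Gpx3 (adjusted p = 1) and Gpx4 (adjusted p = 0.0361) in L. All rest on 2 lanes of 1 pool per sex.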

How the results depend on the processing

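Of 59 member results past the limit of 0.001, 42 kept their call and direction under every alternative run for them: 7 of 7 for FSC against HPC, 24 of 28 for each type against the others, 5 of 11 between sexes, 4 of 8 for the difference of sex differences, 0 of 1 between lanes and 2 of 4 for the FSC classes. Of 1116 values under alternatives, 971 kept direction and side of the limit, or changed sign without passing it in either setting, 39 lost the call and 104 gained it. With library-size scaling 2 were reversed, both Sod1 in L: the sex difference became 0.59 and its difference from the other types 0.47.

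The number of calls for each type against the others was 28, and 47 without a filter, 52 with lanes as libraries and 57 at a limit of 0.05. Steps between neighbouring types numbered 6, and 15, 17 and 18 under those alternatives. Sex differences numbered 11, and 7 in thinned cells and 20 at 0.05. Differences of sex differences numbered 8, and 18 at 0.05. The female lanes differed in 1 member, and in 0 by DESeq2. The FSC classes differed in 4 members, in 2 by DESeq2, and in 2 to 3 with a lane left out. Lanes as libraries add libraries without adding animals, and the cause of these changes was not tested.

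Counts over all genes moved more. Thinned cells, which hold fewer UMIs, gave 201 to 2295 calls between types in place of 501 to 3724. No filter gave 1313 to 4245 and lanes as libraries 1288 to 4391 for 6 types that had 501 to 2752, and DESeq2 gave 1057 for T in place of 501. Between sexes L had 1557 calls, 2879 with library-size scaling, 693 by DESeq2 and 428 in thinned cells. S had 1318, 553 by DESeq2 and 326 in thinned cells. FSC had 377, 221 by DESeq2, 186 in thinned cells, 6 without a filter and 159 without the female lane with 1868 cells. G had 300, 131 in thinned cells and 571 without a filter. The smaller counts varied from 1 to 83 in Le (23), 3 to 70 in EC (36), 14 to 27 in C (66) and 10 to 32 in T (49) where they moved. DESeq2 gave 6 in place of 43 between female lanes and 3 in place of 17 between male lanes. The Le classes had 400 and 189 to 219 with a lane left out, and the FSC classes 561 and 286 to 327. The calls for sex differences that differed from the other types in L went from 742 to 1475 with library-size scaling. That scaling also moved the share of higher calls from 39.0% to 50.6% for sex in FSC, from 31.8% to 45.8% in C and from 43.3% to 67.8% in G. For the difference of sex differences it moved from 55.0% to 18.8% in Le, 38.7% to 23.3% in FSC, 38.2% to 66.9% in G, 94.3% to 47.3% in T, 62.6% to 32.1% in S and 24.9% to 89.1% in L, and for the Le classes from 50% to 38.5%.

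No paired analysis was possible because the lanes of the table carry no replicate numbers of the labels, so that female and male lanes could not be matched. FSC and Le classes were compared with lane as block. Types were compared with sex in the main fit, and with lane as block as an alternative. T (88 cells) and EC (132 cells) had the fewest cells of the types tested, and levels of Gpx8, Mt2A and Mt3 near those in Le cannot be told from free RNA at this depth.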
